A study of Mus musculus with 2 samples.

Results

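Voltage-gated sodium and calcium channels are the membrane proteins that open when a neuron depolarises, and their pore and accessory subunits were described here across the cell types of the mouse forebrain. The genes were chosen by symbol alone: Scn followed by digits and a or b, Cacna1 followed by a letter, and Cacna2d or Cacnb followed by a digit. This rule found 32 of the 31040 genes in the deposited matrix, namely 10 sodium channel alpha genes, 4 sodium channel beta genes, 10 calcium channel alpha1 genes, 4 alpha2delta genes and 4 calcium channel beta genes.

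Nuclei came from tissue labelled as prefrontal cortex of wild type male C57BL/6 mice, 2 months old. One group received methamphetamine (METH, a psychostimulant) and the other, Control, saline, both by intraperitoneal injection for 14 days. The METH dose was 5 mg/kg, and the tissue of 3 mice went into each group's single library. Barcodes end in 1 of 2 numbers, but no label ties a number to METH or Control, so no comparison of the groups was made and the names library 1 and library 2 stand for the numbers. All values therefore describe 1 pooled sample without replicates, and every interval covers counting error only.

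Sodium channels carry the upstroke of the action potential. Their alpha subunit forms the pore, and beta subunits set its gating and anchoring in the membrane. Calcium channels turn the action potential into a calcium signal: L-type channels (Cacna1c, Cacna1d) couple it to gene expression, P/Q-type (Cacna1a), N-type (Cacna1b) and R-type (Cacna1e) channels drive transmitter release and dendritic calcium entry, and T-type channels (Cacna1g, Cacna1h, Cacna1i) open at low voltage and shape bursts. Alpha2delta subunits carry alpha1 subunits to the surface, and those of Cacna2d1 and Cacna2d2 are the targets of the gabapentinoid drugs. Beta subunits bind alpha1 inside the cell and are needed for its trafficking.

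The matrix held 66566100 unique molecular identifiers (UMIs, each standing for 1 captured RNA molecule) in 20766 barcodes, of which 9890 ended in 1 and 10876 in 2. Per the labels about 8000 nuclei were loaded per library, and 154 barcode sequences occurred in both. After filters 18002 nuclei with a median of 2978 UMIs were clustered without the channel genes, and clusters were named from marker lists, so that each name below means nuclei with those markers ("-like"). Among 12 classes, 9 had at least 100 nuclei and were compared. They were 7736 excitatory and 2400 inhibitory neurons, 1297 striatal projection neurons, 219 neuroblast or dividing nuclei, 3062 oligodendrocytes, 115 differentiating oligodendrocytes, 368 oligodendrocyte precursors, 306 astrocytes and 883 microglia. Striatal projection neurons are no cells of the prefrontal cortex, and the libraries differed in them (348 nuclei in library 1 and 949 in library 2) and in astrocytes (50 and 256). Left out were 94 nuclei with fibroblast markers, 57 with perivascular macrophage markers and 53 with cholinergic markers. Each class was compared by UMIs of a gene per 1000000 UMIs of the class (CPM). RNA set free from broken cells reaches every droplet. A class counts as above free RNA for a gene if the lower bound of the CPM passed an estimated upper level of this RNA. The estimate rests on RNA of excitatory neurons or of myelin, so it may not follow free RNA of other cells.

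The genes lie on 11 autosomes and the X chromosome in GRCm38 (GENCODE vM21 annotation). Scn3a, Scn2a, Scn1a, Scn9a and Scn7a form a cluster on chromosome 2 between 65457118 and 66784914, and the starts of Scn3a and Scn2a point away from each other 53.1 kb apart. Scn10a and Scn11a lie side by side on chromosome 9, as do Scn2b (45117782 to 45130070) and Scn4b (45138395 to 45154152), with 8.32 kb between this last pair. Upstream sequence of 5 members is shown in 2 sets. Cacna2d1 and Cacna2d3 were highest in different neuronal subclasses. Scn1a, Scn2a and Scn9a are neighbours in 1 cluster, and of these Scn1a and Scn9a shared their highest subclass. The stretches run from 250 to 6 bases before a RefSeq start (GRCm38.p6), lie outside the annotated gene and are written 5′ to 3′ on the strand of the gene. Capitals mark 3 motifs, searched on both strands. The GC box is GGGCGG. The box named CCAAT has those letters. The TATA box is searched as TATAAA. They lie at chr5:15934441-15934685 (plus strand), chr14:29721870-29722114 (minus), chr2:66440843-66441087 (minus), chr2:65620519-65620763 (plus) and chr2:66634968-66635212 (minus), in the order printed.
Cacna2d1: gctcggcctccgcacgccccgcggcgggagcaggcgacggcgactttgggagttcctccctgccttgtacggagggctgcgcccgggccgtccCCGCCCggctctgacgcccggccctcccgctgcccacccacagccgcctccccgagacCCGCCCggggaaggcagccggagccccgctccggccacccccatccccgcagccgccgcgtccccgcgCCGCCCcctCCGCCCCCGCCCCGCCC
Cacna2d3: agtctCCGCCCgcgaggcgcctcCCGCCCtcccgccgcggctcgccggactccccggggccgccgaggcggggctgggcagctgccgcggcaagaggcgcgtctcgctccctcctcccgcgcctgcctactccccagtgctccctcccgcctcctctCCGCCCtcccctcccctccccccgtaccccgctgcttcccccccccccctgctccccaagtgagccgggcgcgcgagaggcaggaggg
Scn1a: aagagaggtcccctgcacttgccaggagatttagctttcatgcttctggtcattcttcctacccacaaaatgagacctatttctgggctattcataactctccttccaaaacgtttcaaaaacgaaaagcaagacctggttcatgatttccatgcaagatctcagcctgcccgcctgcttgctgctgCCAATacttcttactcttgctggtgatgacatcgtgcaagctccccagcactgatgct
Scn2a: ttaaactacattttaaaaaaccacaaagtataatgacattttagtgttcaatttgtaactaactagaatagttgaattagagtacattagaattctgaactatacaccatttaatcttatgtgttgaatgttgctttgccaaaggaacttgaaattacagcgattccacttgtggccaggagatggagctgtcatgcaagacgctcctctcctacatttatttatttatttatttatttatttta
Scn9a: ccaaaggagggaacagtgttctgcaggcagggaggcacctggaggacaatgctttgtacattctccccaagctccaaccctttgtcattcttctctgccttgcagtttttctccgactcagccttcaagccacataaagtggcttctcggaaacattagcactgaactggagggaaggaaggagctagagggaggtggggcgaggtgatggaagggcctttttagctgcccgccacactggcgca

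The alpha2delta stretches were rich in G and C, at 82.0% for Cacna2d1 and 79.6% for Cacna2d3, with 35 and 29 CpG dinucleotides and 6 and 3 GC boxes. The sodium channel stretches held 47.3% (Scn1a), 30.2% (Scn2a) and 54.3% (Scn9a) G and C, with 4, 2 and 5 CpG dinucleotides and no GC box. Scn1a held 1 CCAAT box, and none of the 5 held a TATA box. Scn2a has another RefSeq start, inside the annotated gene, whose stretch (chr2:65668436-65668680) is not printed. That stretch held 53.9% G and C, 9 CpG dinucleotides and 1 TATA box. Over 32851 RefSeq stretches of the same length the median was 52.2% G and C with 5 CpG dinucleotides, and 32.1% held a GC box, 33.5% a CCAAT box and 12.2% a TATA box. RefSeq entries were found for 24 of the 32 members. These matches describe letters only.

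Neurons held most of the channel RNA. The 32 genes together made up 8915 CPM in the striatal class, 6038 in the excitatory, 4920 in the inhibitory and 4320 in neuroblast or dividing nuclei. They made up 3446 CPM in oligodendrocyte precursors, 2447 in microglia, 1830 in oligodendrocytes and 1790 in astrocytes. Striatal projection neurons led in both libraries (9076 and 8859 CPM), as did excitatory over inhibitory neurons (5984 against 4939, and 6088 against 4904). Of the 32 genes, 27 reached 50 UMIs or more summed over named classes and count as measured.

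A gene was said to have a clear highest class where that class passed free RNA and its ratio to the class after it had a 95% interval above 1. This held for 16 of the 27 measured channel genes (59.3%), against 25% of all 15795 genes tested and 30.1% of genes with at least 1000 UMIs. All 16 were among the 24 channel genes with at least 1000 UMIs. A clear highest class that was excitatory, inhibitory or striatal was found for 15 of the 27 measured channel genes (55.6%), against 8.19% of all genes tested. Striatal projection neurons were the clear highest class of 7 genes (3.11% of all genes), excitatory neurons of 4 (2.42%), inhibitory neurons of 4 (2.66%) and neuroblast or dividing nuclei of 1 (1.81%). For 15 of the 16 the same class was highest in each library alone, the exception being Cacna1i. The lead was large, with the lower bound of the ratio above 1.5, for 5 genes against 11.5% of all genes tested. They were Cacna2d3, Cacnb2, Scn4b, Cacna2d2 and Cacna1h. These leads hold among the compared classes only. The 53 nuclei with cholinergic markers, too few to be compared, held more Cacna2d2 than inhibitory neurons. Their Cacna2d3 level was about that of striatal projection neurons, as given below. Levels are compared below between classes for 1 gene at a time, not between genes.

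**Figure D1:**
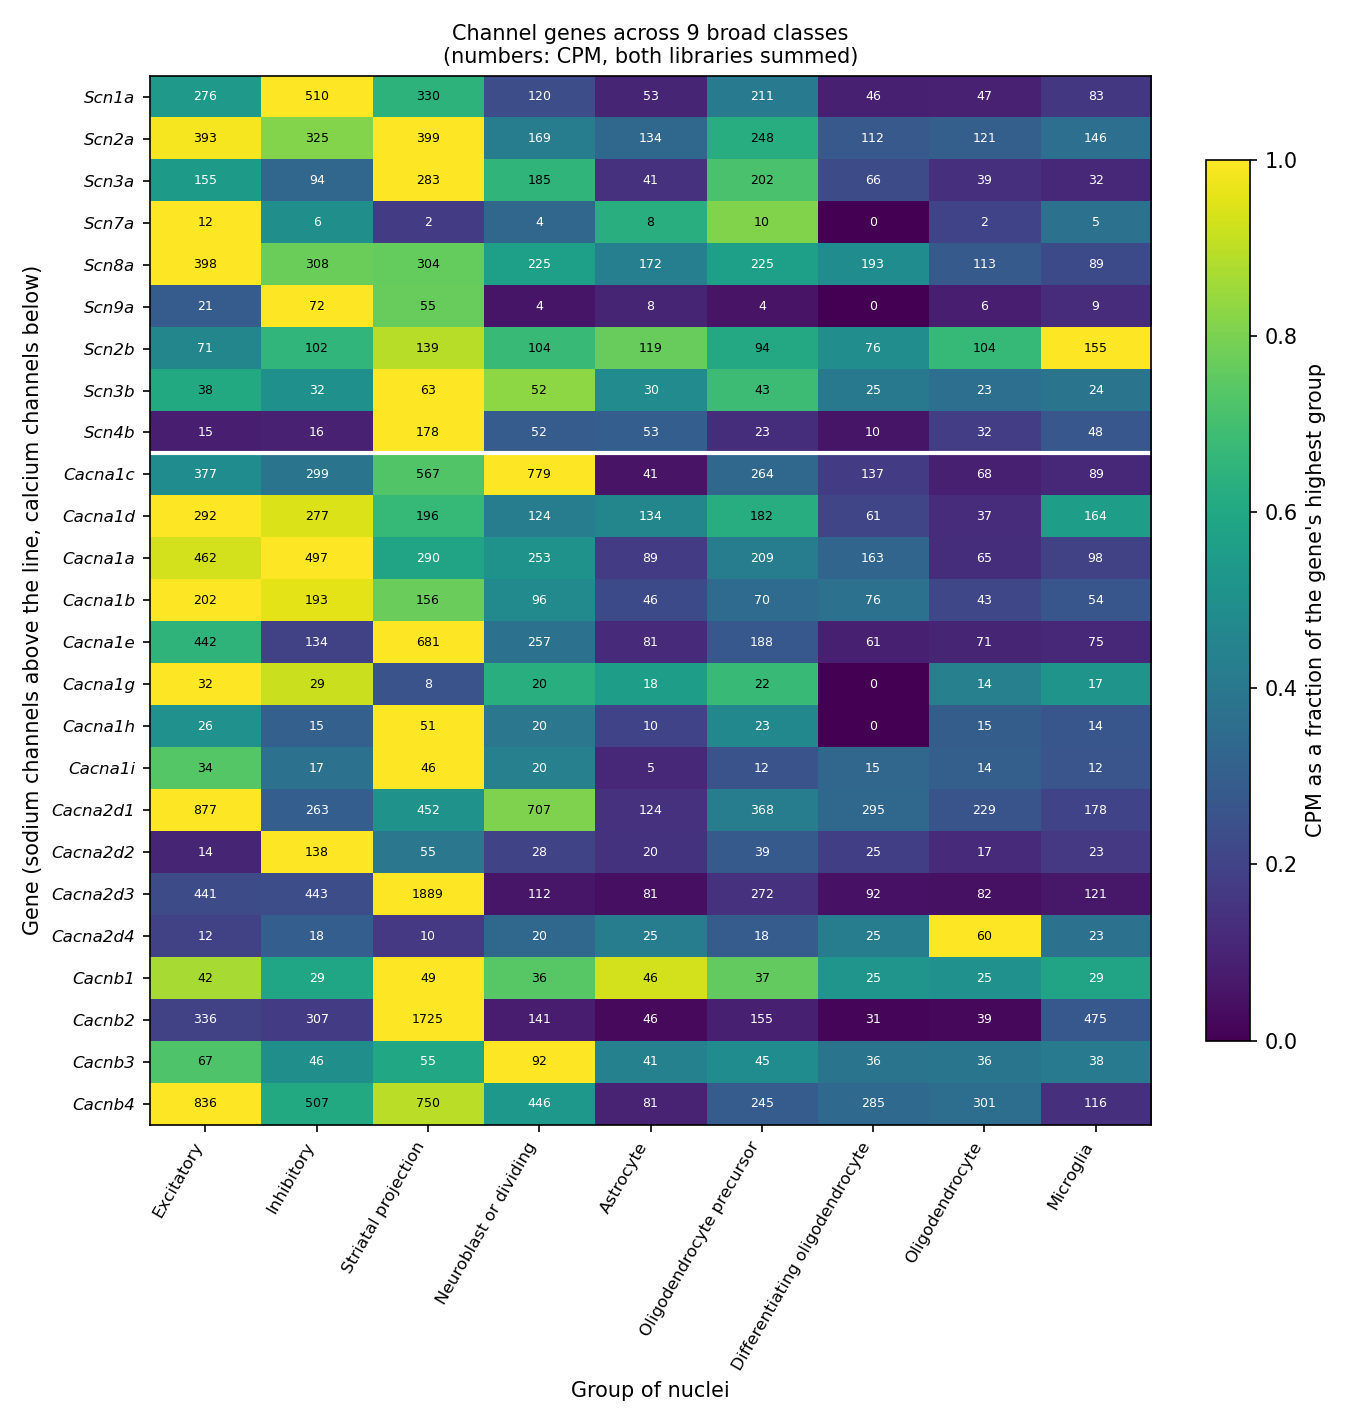
Level of 25 measured channel genes (rows) in the 9 broad classes of at least 100 nuclei (columns). Numbers are CPM over both libraries, and colour is the CPM as a fraction of the gene's highest class, so that the bright cells of Cacna2d3, Cacnb2 and Scn4b stand in the striatal column and that of Cacna2d2 in the inhibitory one.

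Among neurons, 17 subclasses of at least 100 nuclei were compared. The excitatory ones were L2/3 (1616 nuclei), L4/5 IT (1933), deep IT (659), L5 ET (517), L5/6 NP (222), L6 CT (1232), L6b (346), claustrum (177) and 1034 nuclei without a subclass. IT, ET, NP and CT stand for neurons that project within the telencephalon, out of it, near by and to the thalamus. The inhibitory ones were Pvalb (882), Sst (698), Vip (386), Lamp5 (301) and 133 without a subclass. Striatal projection neurons were split into those with markers of the D1 dopamine receptor type (505), of the D2 type (431) and 361 with neither name. A clear highest subclass was found for 9 of 27 channel genes (33.3%), against 11.7% of 15286 genes tested and 15.9% of genes with at least 1000 UMIs. None of the 9 led by a lower bound above 1.5, which held for 2.54% of genes tested. The clear subclass was Pvalb for 3 genes, Scn1a, Scn9a and Cacna2d2 (1.6% of all genes tested), and D2 striatal for 3, Cacna1e, Cacnb2 and Scn4b (0.412%). It was L5 ET for Cacna1h (0.805%), L5/6 NP for Cacnb4 (0.975%) and Lamp5 for Cacna2d1 (1.26%). For 8 of the 9 each library alone had the same highest subclass, and the exception was Scn9a.

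**Figure D2:**
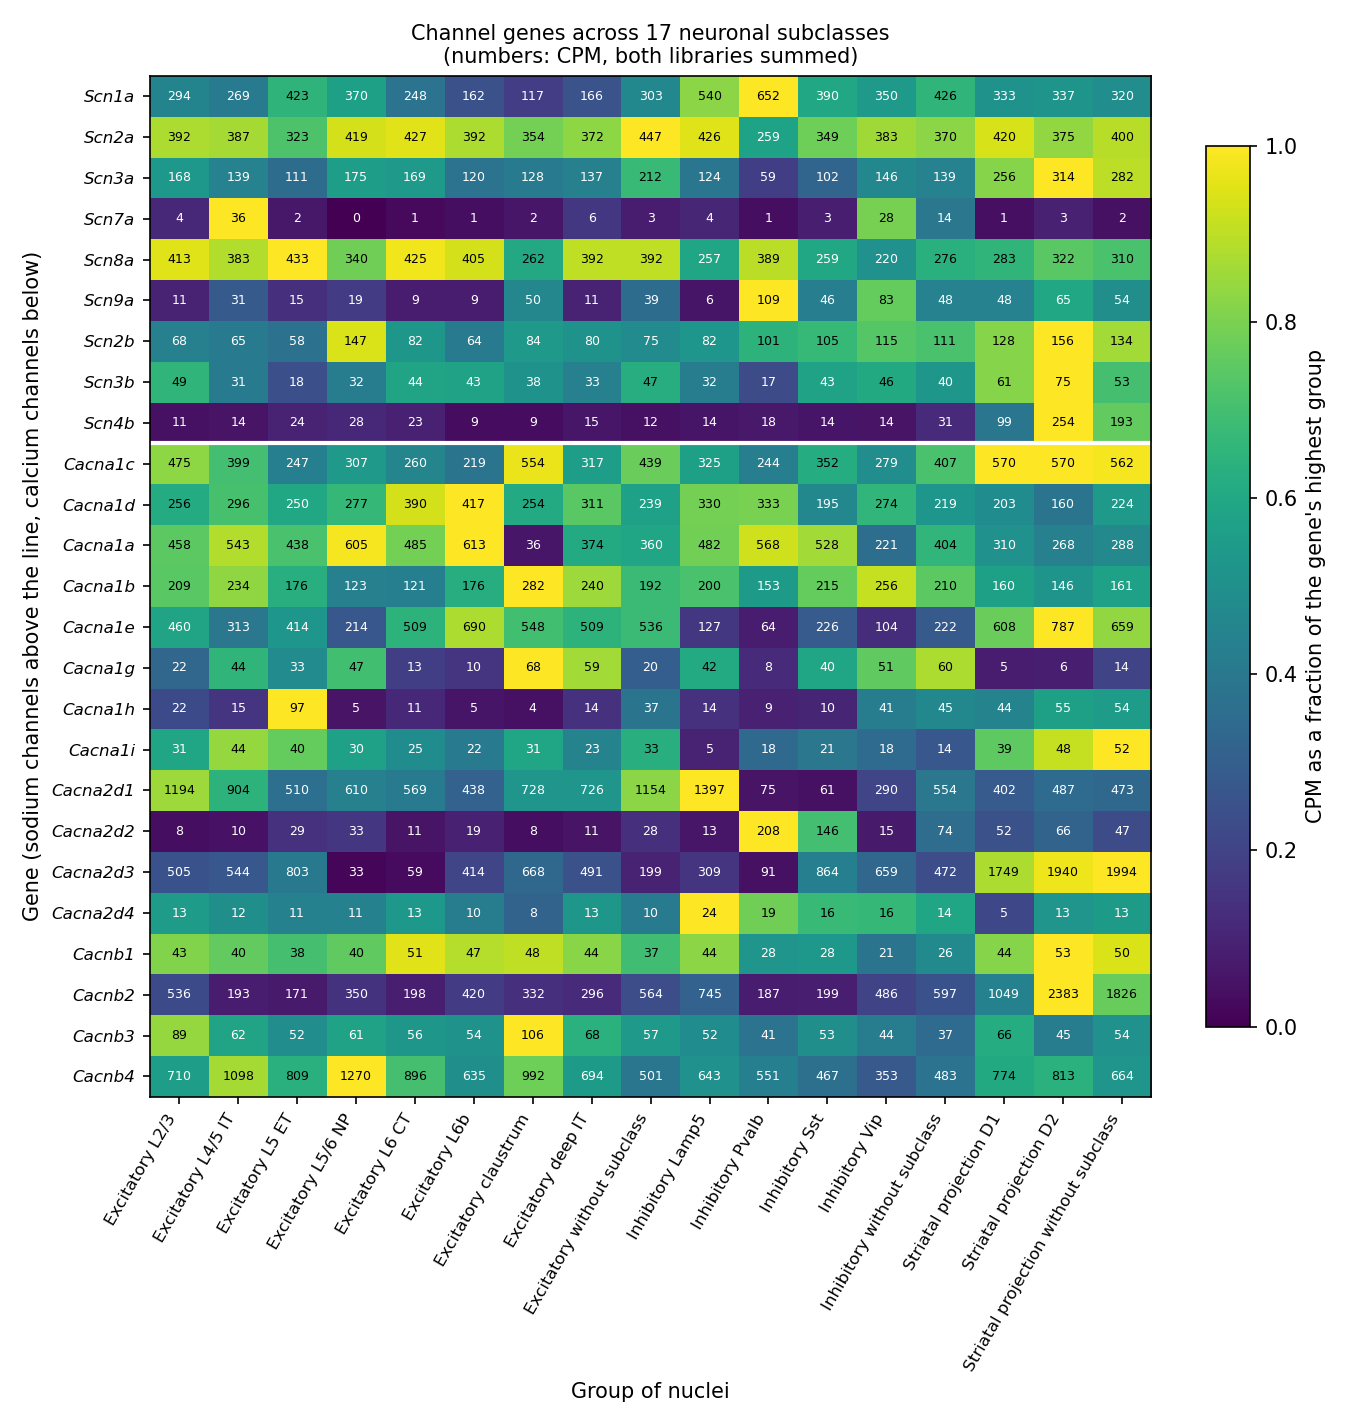
Level of 25 measured channel genes (rows) in the 17 neuronal subclasses (columns). Numbers are CPM over both libraries and colour is the fraction of the gene's highest subclass, with dark cells for Cacna1a in claustrum (36.2 CPM), Cacna2d3 in L5/6 NP (33.3 CPM) and Cacna2d1 in Sst (60.8 CPM).

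Scn1a encodes Nav1.1, a sodium channel pore known for its role in fast-spiking interneurons and mutated in Dravet syndrome. Its level was 534 CPM in library 1 and 489 in library 2 in inhibitory neurons, 338 and 327 in striatal projection neurons and 305 and 249 in excitatory neurons. Inhibitory neurons were therefore highest in both libraries, and over both the ratio to striatal projection neurons was 1.55 (95% interval 1.45 to 1.65). Within inhibitory neurons Pvalb nuclei held 669.8 and 635 CPM, Lamp5 nuclei 533 and 547, Sst nuclei 421 and 359, and Vip nuclei 365 and 337. Excitatory subclasses were not uniform in Scn1a. L5 ET nuclei, the large output neurons of layer 5, held 493 and 341 CPM, whereas deep IT nuclei held 167 and 165 and claustrum nuclei 115 and 118. The claustrum level was the lowest of the 17 subclasses, with 107 UMIs (117 CPM, 96.1 to 142).

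Scn2a, which encodes Nav1.2, the pore of the axon initial segment and of dendrites, was close to even among neurons. Striatal projection neurons held 399 CPM, excitatory neurons 393 and inhibitory neurons 325, and the ratio of the first pair, 1.01 (0.962 to 1.07), did not separate them. The libraries disagreed on which was higher (349.6 and 416 CPM in striatal, 381 and 405 in excitatory neurons). Over subclasses Scn2a ran from 259 CPM in Pvalb nuclei to 447 CPM in excitatory nuclei without a subclass. Pvalb nuclei, highest in Scn1a, were thus lowest in Scn2a in both libraries (255 and 263 CPM).

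Scn8a encodes Nav1.6, which sustains repetitive firing. It was clearly highest in excitatory neurons, at 418 CPM in library 1 and 381 in library 2 (322 and 296 in inhibitory neurons, ratio over both 1.29, 1.24 to 1.35). Among excitatory subclasses it ran only from 262 CPM in claustrum to 433 in L5 ET. Pvalb nuclei held 389 CPM of Scn8a, while Lamp5, Sst and Vip nuclei held 257, 259 and 220.0 CPM. Scn8a passed free RNA in 8 of the 9 classes. The exception, microglia at 88.9 CPM, set the free RNA level of this gene and so could not pass it.

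Scn3a, the sodium channel pore of the embryonic brain, was highest in striatal projection neurons (262 and 290.1 CPM), followed by oligodendrocyte precursors (201 and 202), with a ratio of 1.40 (1.15 to 1.74). Neuroblast or dividing nuclei held 192 and 183 CPM. Pvalb nuclei were the lowest subclass in Scn3a, at 58.6 CPM, against 314 CPM in D2 striatal nuclei.

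Scn9a encodes Nav1.7, best known from pain-sensing neurons. Inhibitory neurons held 76.3 and 68.3 CPM and striatal projection neurons 43.2 and 59.4, with a ratio over both of 1.3 (1.11 to 1.54). Pvalb nuclei held 109 CPM, Vip nuclei 83.2 and Lamp5 nuclei 6.30, so the inhibitory subclasses differed more from each other than inhibitory from striatal neurons. Among excitatory subclasses claustrum was highest at 50.4 CPM (68.0 and 40.0 by library), against 8.66 CPM in L6 CT. The 53 nuclei with cholinergic markers, too few to be compared, held 259.9 CPM of Scn9a.

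Scn7a, a sodium-sensing relative of the voltage-gated pores, was found above free RNA in 5 of 17 subclasses. L4/5 IT nuclei held 35.0 and 36.5 CPM and Vip nuclei 22.5 and 33.5 CPM. The other excitatory subclasses lay between 0 UMIs in L5/6 NP and 5.83 CPM in deep IT. Scn4a, the skeletal muscle pore, and Scn10a and Scn11a, known from sensory neurons, had 17, 35 and 4 UMIs over the named classes and were not compared.

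Scn4b encodes a beta subunit, abundant in the striatum, that is linked to the resurgent sodium current. Striatal projection neurons held 135 CPM in library 1 and 194 in library 2, and over both 178 CPM (lower bound 165) against 53.2 in astrocytes, the next class (ratio 3.35, 2.18 to 5.45). The astrocyte value rested on library 2 (0 and 62.9 CPM) and did not pass free RNA. Scn4b passed free RNA in only 2 of 9 classes, striatal and excitatory neurons, the latter at 15 CPM. D2 nuclei held 185 and 277 CPM and D1 nuclei 90.2 and 103, and the 14 excitatory and inhibitory subclasses held between 8.77 and 31.3 CPM.

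Scn2b, another beta subunit, was highest in microglia (155 CPM), but that value did not pass free RNA, and the gene had no clear highest class. It passed free RNA in the 3 neuronal classes. Among subclasses Scn2b was highest in D2 striatal (156 CPM) and L5/6 NP nuclei (147 CPM) and lowest in L5 ET nuclei (58.5 CPM). Scn3b ran from 17.4 CPM in Pvalb nuclei to 75.1 in D2 striatal nuclei.

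Cacna1a encodes Cav2.1, the P/Q-type pore that triggers transmitter release at most central synapses and is mutated in episodic ataxia and hemiplegic migraine. Over the broad classes it was nearly even between inhibitory (497 CPM) and excitatory neurons (462 CPM), with a ratio of 1.07 (1.04 to 1.11). The subclasses showed an exception. Claustrum nuclei held only 33 UMIs of Cacna1a, 36.2 CPM (24.9 to 50.8), at 44.4 CPM in library 1 and 31.3 in library 2. The other 16 subclasses held between 221 CPM (Vip) and 613 CPM (L6b), and no library of any of them was below 203 CPM. The next lowest subclass was therefore 6.11 times higher (4.21 to 9.13), and the median subclass 12.1 times higher. The claustrum value lay just above its free RNA level of 23.9 CPM.

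Counted by nuclei, 10.7% of claustrum nuclei had a UMI of Cacna1a, against 37.8% to 92.1% in the other subclasses, although their median depth of 4955 UMIs was among the higher ones. After each nucleus was thinned to 600 UMIs, 1 of 177 claustrum nuclei held a UMI (0.565%, exact binomial interval 0.0143% to 3.11%), against 10.9% to 32.9% elsewhere. In oligodendrocytes, which set the free RNA level of Cacna1a and so could not pass it, the thinned share was 3.56% (unthinned 5.42%, median 811 UMIs).

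So low a value was rare in the data. Of 1828 genes with a median of at least 100 CPM over subclasses, 5 (0.274%) had a lowest subclass more than 3-fold under the next, by the lower bound of the ratio. They were Cacna1a and Rgs7 in claustrum, Egfem1 in Pvalb, Kctd16 in L6b and Neto1 in L5/6 NP nuclei, and Cacna1a was 1 of 14 channel genes with that median. Claustrum nuclei were named by 5 of the 6 listed markers found in the matrix, and all 5 were highest there among the 17 subclasses. The same markers gave the name, so their rank follows in part from the naming rule and is no separate check. Other names ranged from 6 of 7 markers highest in Lamp5 nuclei to 1 of 6 in L4/5 IT, deep IT and L6 CT nuclei. L5 ET nuclei had 2 of 7. Over the broad classes, 2 of 8 markers were highest in excitatory neurons and 2 of 8 in inhibitory neurons. The summed channel level of claustrum nuclei, 6007 CPM, was close to the 6038 CPM of excitatory neurons as a whole. The other release-site pores were not low in them: Cacna1b, the N-type pore, was highest in claustrum in both libraries (278 and 284 CPM, ratio to Vip nuclei 1.10, lower bound 0.915), and Cacna1e stood at 548 CPM. UMIs come from the 3′ end of transcripts, and whether another end of the Cacna1a transcript is used in these nuclei was not tested.

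**Figure D3:**
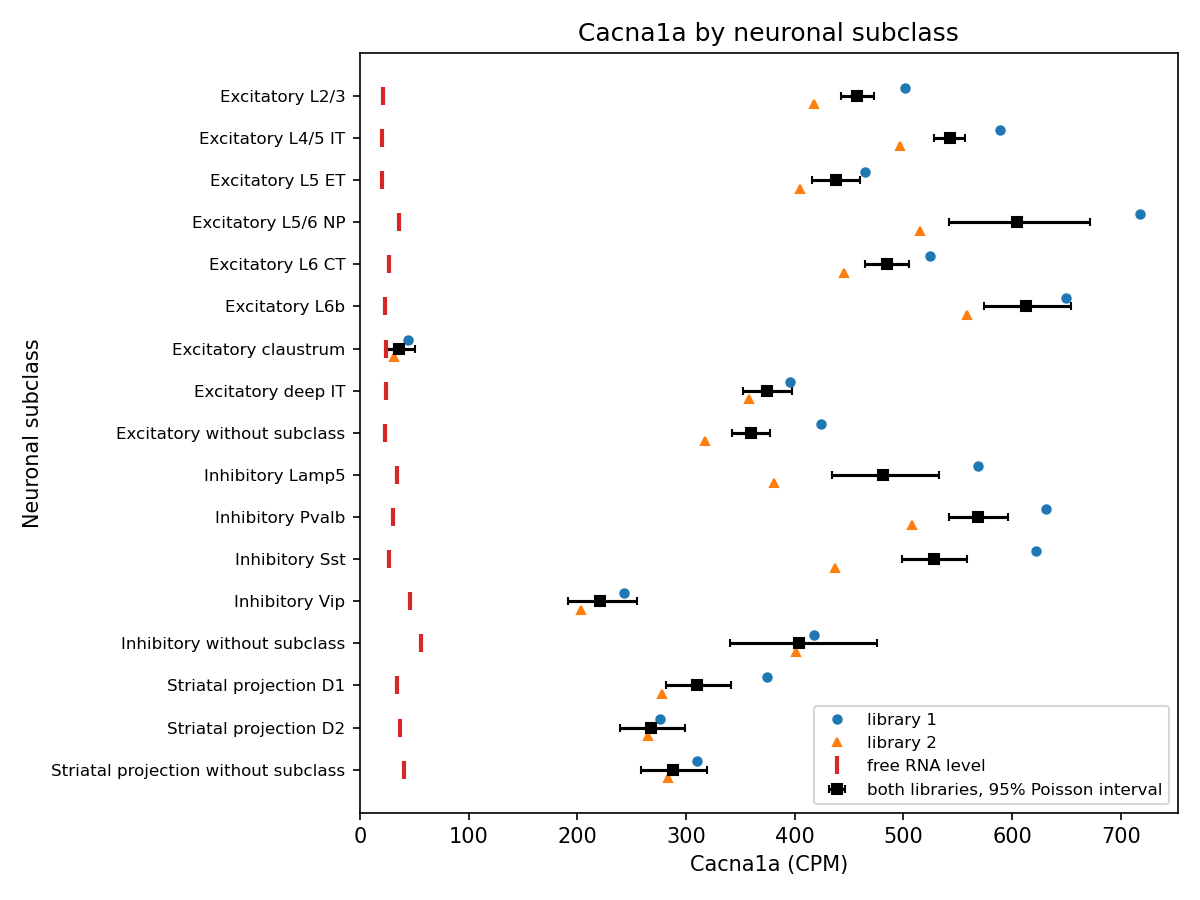
Cacna1a in CPM (horizontal axis) in each of the 17 neuronal subclasses. Squares are both libraries with 95% Poisson intervals, circles and triangles the libraries alone and red ticks the free RNA level. Claustrum, at 36.2 CPM, sits next to that level, and every other subclass lies at 221 CPM or more.

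Cacna1b was highest in excitatory neurons (202 CPM) with inhibitory neurons close by (193 CPM, ratio 1.04, 0.987 to 1.11). Its lowest subclasses were L6 CT (121 CPM) and L5/6 NP (123 CPM). The pore genes Cacna1a and Cacna1b thus had opposite ranks in L5/6 NP and in claustrum nuclei.

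Cacna1e encodes Cav2.3, the R-type pore of dendrites and terminals. Striatal projection neurons held 687 and 679 CPM and excitatory neurons 414 and 468, with a ratio over both of 1.54 (1.48 to 1.61). Inhibitory neurons held 121 and 146 CPM, below oligodendrocyte precursors (183 and 190.4 CPM). D2 nuclei (787 CPM) led L6b nuclei (690.1 CPM) by a ratio of 1.14 (lower bound 1.04), and Pvalb nuclei were lowest at 63.6 CPM.

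Cacna1c and Cacna1d encode the L-type pores Cav1.2 and Cav1.3. Cacna1c was highest in neuroblast or dividing nuclei (732 and 793 CPM), ahead of striatal projection neurons (632 and 545 CPM), with a ratio of 1.37 (1.18 to 1.59). That lead turned round under 4 other clusterings, with log2 ratios from -0.93 to -0.17. Within neurons D1 and D2 striatal nuclei held 569.8 and 570.4 CPM and claustrum nuclei 554, while L6b nuclei held 219. Cacna1d showed another order. It was highest in excitatory neurons by a narrow ratio of 1.06 (1.01 to 1.11), with 417 CPM in L6b and 390.3 in L6 CT nuclei and 160.1 CPM in D2 striatal nuclei.

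Cacna1h encodes Cav3.2, a T-type pore. Striatal projection neurons held 56.6 and 48.4 CPM and excitatory neurons 25.1 and 26.0 (ratio over both 1.97, 1.68 to 2.31). The excitatory mean covered a single high subclass: L5 ET nuclei held 97.2 and 96.9 CPM, 1.76 times the level of D2 striatal nuclei (lower bound 1.35), while the other named excitatory subclasses held from 4.38 to 22.0 CPM. Cacna1g and Cacna1i, the other T-type pores, were arranged differently. Cacna1g was highest in claustrum (67.9 CPM), deep IT (58.6 CPM) and inhibitory nuclei without a subclass (59.7 CPM), and did not pass free RNA in any of the 3 striatal subclasses (5.17 to 13.8 CPM). Cacna1i was highest in striatal projection neurons (46.0 CPM, ratio to excitatory neurons 1.36, 1.15 to 1.59) and low in Lamp5 nuclei (5.04 CPM). Cacna1f and Cacna1s, the retinal and skeletal muscle L-type pores, had 22 and 35 UMIs and were not compared.

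The alpha2delta genes differed in the neurons that held them. Cacna2d3 stood at 2029.9 CPM in library 1 and 1841 in library 2 in striatal projection neurons, and inhibitory and excitatory neurons followed at 443 and 441 CPM over both. Its ratio to the next class, 4.26 (4.09 to 4.44), was the largest among channel genes with a clear highest class. The 53 cholinergic nuclei held 1897 CPM. Among excitatory and inhibitory subclasses, Cacna2d3 was high in Sst (913 and 816 CPM), L5 ET (887 and 705 CPM), claustrum (668 CPM) and Vip nuclei (659 CPM). It was low in Pvalb (89.7 and 91.7 CPM), L6 CT (40.0 and 78.9 CPM) and L5/6 NP nuclei (35.7 and 31.4 CPM). The L5/6 NP value, 19 UMIs, was under its free RNA level of 45.0 CPM, and L5 ET nuclei of the same layer held 803 CPM.

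Cacna2d1, the main target of gabapentin and pregabalin, was highest in excitatory neurons at 864 and 889 CPM, with neuroblast or dividing nuclei next at 749.7 and 694 (ratio over both 1.24, 1.07 to 1.45). Inhibitory neurons held 263 CPM, but their subclasses stood at opposite ends. Lamp5 nuclei held 1354 and 1447 CPM, the highest of all subclasses and 1.17 times L2/3 nuclei (lower bound 1.10). Pvalb nuclei held 54.8 and 93.7 CPM, and Sst nuclei 45.1 and 76.2, the latter not above free RNA. The median of the other subclasses was higher by log2 ratios of 2.91 (Pvalb) and 3.21 (Sst), which fell to 2.01 and 1.84 when called doublets were kept.

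Cacna2d2, the other gabapentinoid target, was highest in the subclasses where Cacna2d1 was lowest. Pvalb nuclei held 199 and 217 CPM and Sst nuclei 152 and 139.5, with a ratio of Pvalb to Sst of 1.43 (lower bound 1.25). Lamp5 and Vip nuclei held 12.6 and 14.8 CPM, not above free RNA, and the named excitatory subclasses held 7.67 to 33.3 CPM. Over broad classes inhibitory neurons (138 and 137 CPM) exceeded striatal projection neurons (48.3 and 57.0 CPM) by a ratio of 2.51 (2.16 to 2.93), and cholinergic nuclei held 310.0 CPM. Pvalb nuclei were thus high in Cacna2d2 alone, Sst nuclei in Cacna2d2 and Cacna2d3, Lamp5 nuclei in Cacna2d1, and Vip nuclei in Cacna2d3 with 290 CPM of Cacna2d1. Cacna2d4, known from photoreceptors, was highest in oligodendrocytes (69.0 and 51.1 CPM), but its ratio to the next class had an interval from 0.996 to 7.39.

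**Figure D4:**
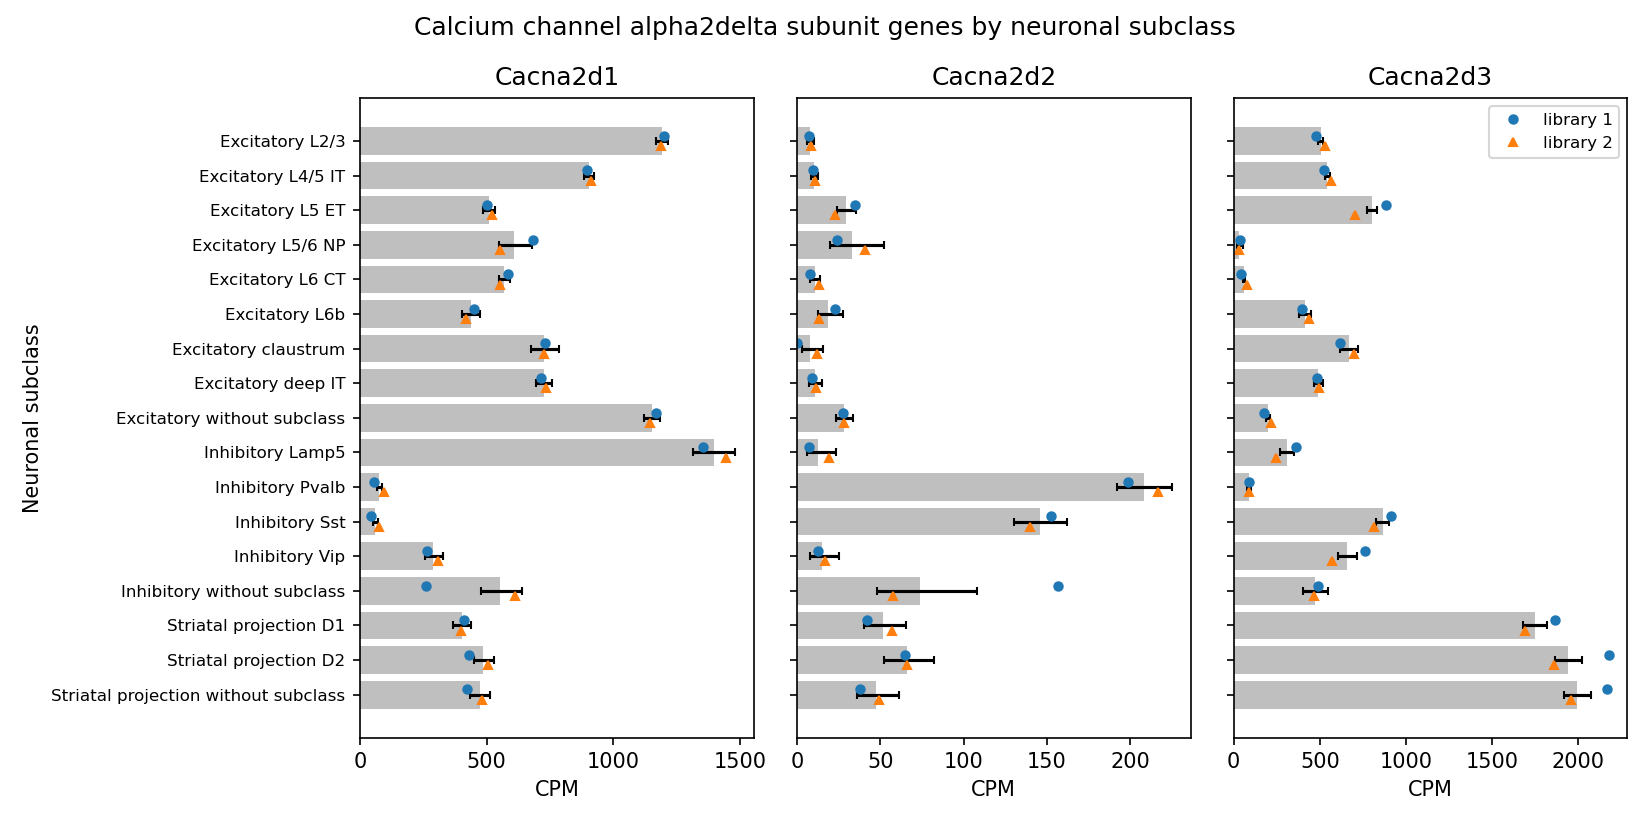
Cacna2d1, Cacna2d2 and Cacna2d3 (panels, CPM from 0 on each axis) in the 17 neuronal subclasses. Bars are both libraries with 95% Poisson intervals, and circles and triangles are the libraries. Pvalb nuclei show a long bar for Cacna2d2 (208 CPM) and short ones for Cacna2d1 (74.7 CPM) and Cacna2d3 (90.7 CPM).

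Cacnb2, a beta subunit also known from the heart, was highest in striatal projection neurons (1784 and 1704 CPM), and the next class was microglia (408 and 526 CPM), which passed free RNA. The ratio was 3.63 (3.24 to 4.08). Excitatory and inhibitory neurons held 336 and 307 CPM. D2 nuclei held 2608 and 2305 CPM, nuclei without a D1 or D2 name 2122 and 1765, and D1 nuclei 1069 and 1038. Among excitatory and inhibitory subclasses Cacnb2 was highest in Lamp5 nuclei (745 CPM) and lowest in L5 ET (171 CPM) and Pvalb nuclei (187 CPM).

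Cacnb4, the beta subunit lost in the ataxic lethargic mouse, was highest in excitatory neurons (820.5 and 850.3 CPM, ratio over both to striatal projection neurons 1.11, 1.07 to 1.16). L5/6 NP nuclei held 1363 and 1197 CPM, L4/5 IT nuclei 1030 and 1164 and claustrum nuclei 1008 and 982, while Vip nuclei were lowest at 353 CPM over both. Oligodendrocytes also passed free RNA for Cacnb4, at 301 CPM. Cacnb1 and Cacnb3 had no clear highest class. Cacnb3 ran from 37.0 CPM in inhibitory nuclei without a subclass to 106 in claustrum, and Cacnb1 from 20.5 CPM in Vip to 53.4 in D2 striatal nuclei.

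Within the striatal projection neurons D2 and D1 nuclei were set side by side, with median depths of 2680 and 2620 UMIs. Of 23 channel genes with at least 50 UMIs in both together, 6 had a ratio interval above 1 and 3 below 1, while 17.4% of 7735 genes tested fell outside (562 higher in D2 nuclei, 781 lower). The higher ones were Scn4b (254 against 99.0 CPM, ratio 2.56, 2.08 to 3.16), Cacnb2 (2383 against 1049 CPM, 2.27, 2.13 to 2.42), Cacna1e (1.3), Scn3a (1.22), Cacna2d1 (1.21) and Cacna2d3 (1.11). Each of the 6 ratios was above 1 in both libraries. The lower ones were Cacnb3 (0.685), Cacna1d (0.788) and Cacna1a (0.862, upper bound 0.9996), also in both libraries. These calls depend on the UMIs of a gene, and the share among well-measured genes was not computed for D2 against D1. The summed channel level was 9915 CPM in D2 and 7902 CPM in D1 nuclei, and the 361 nuclei without a D1 or D2 name lay between them at 9053.

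**Figure D5:**
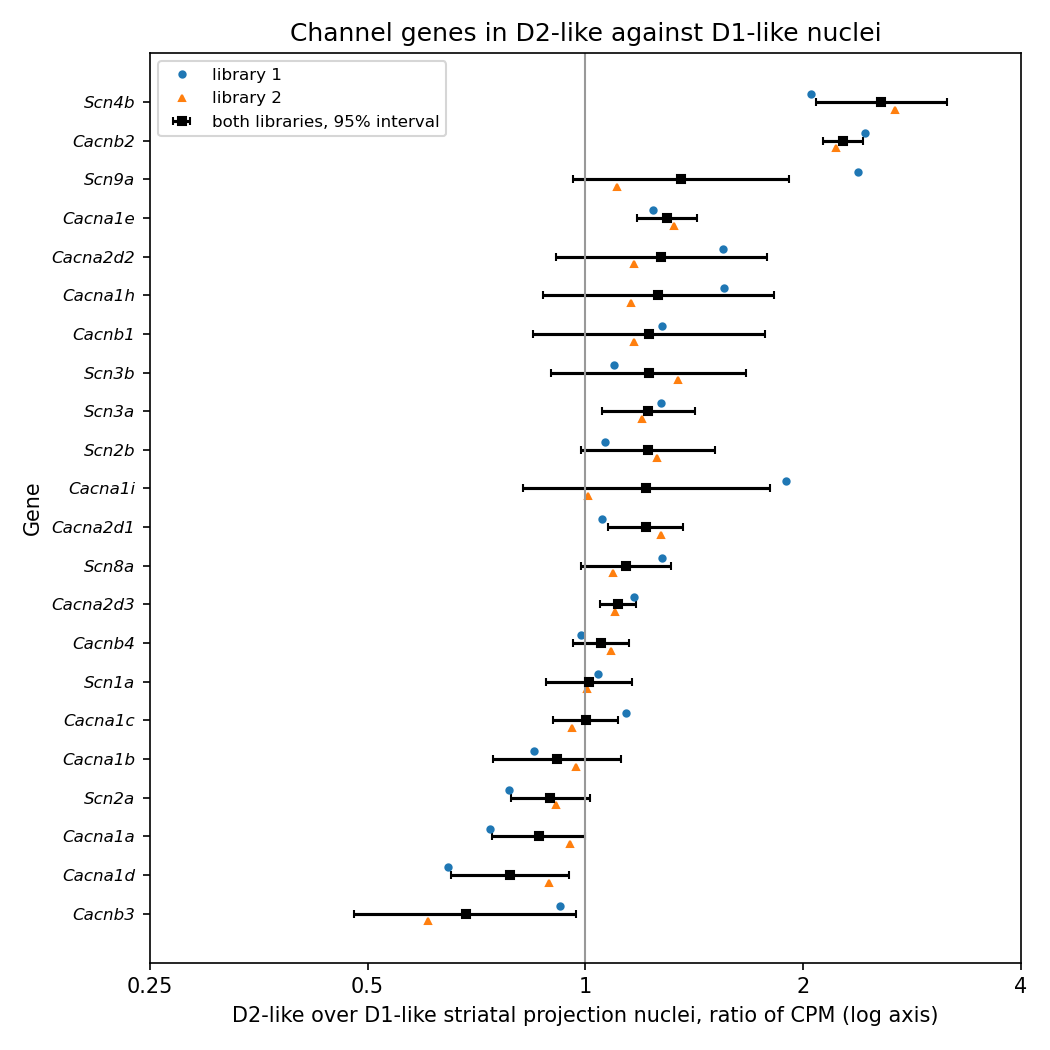
Ratio of CPM in D2 to D1 striatal nuclei (log axis) for 22 channel genes with at least 50 UMIs in both together, sorted by ratio. Squares are both libraries with 95% intervals, circles library 1 and triangles library 2. Scn4b (2.56) and Cacnb2 (2.27) stand apart at the top and Cacnb3 (0.685) is lowest.

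Glia passed free RNA for fewer channel genes than neurons did, as for all genes. Of the 27 measured channel genes, 27 passed it in excitatory neurons (87.5% of all genes tested), 26 in inhibitory neurons (73.5%), 24 in striatal projection neurons (57.3%) and 12 in neuroblast or dividing nuclei (15%). Of the 24 with at least 1000 UMIs, 24, 23, 23 and 12 passed in these classes. Among all genes with at least 1000 UMIs the shares were 98.2%, 94.5%, 82.8% and 23.0%, so the counts in neurons were near those of well-measured genes. Depth differed, as the summed UMIs of a class ran from 196464 in differentiating oligodendrocytes to 36632759 in excitatory neurons, and its part in the counts was not tested. In oligodendrocyte precursors, which are known to carry voltage-gated currents and to receive synapses, 15 passed it (55.6%, against 21.9% of all genes and 32.6% of genes with at least 1000 UMIs). Among them were Cacna2d1 (368 CPM), Cacna2d3 (272 CPM), Cacna1c (264 CPM), Scn2a (248 CPM), Scn1a (211 CPM) and Scn3a (202 CPM). In differentiating oligodendrocytes 7 passed (15.5% of all genes did), among them Cacna2d1 (295 CPM), Cacnb4 (285 CPM) and Scn8a (193 CPM). In oligodendrocytes 4 passed (18.1% of all genes), namely Cacna2d1 (229 CPM), Cacna2d4 (60.3 CPM), Cacnb4 (301 CPM) and Scn8a (113 CPM). Astrocytes passed it for 2, Cacna1d (134 CPM) and Scn8a (172 CPM), and microglia for 2, Cacna1d (164 CPM) and Cacnb2 (475 CPM), against 14.8% and 13.9% of all genes. The 57 perivascular macrophage nuclei, too few to be compared, passed it for 11 (40.7%, against 8.58% of all genes). Whether free RNA gave such passes, there or in other glia, was not tested. The free RNA level is an estimated upper limit, so a gene that every class makes can fail it. It always does so in the class that sets the level.

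Among the channel genes reported here, 2 sets differed between the libraries in the same direction in all 17 neuronal subclasses. Others leaned to a side in fewer of them. Cacna1e was higher in library 2 in 15 subclasses and Scn2a and Cacnb3 in 14. Cacna1d and Scn1a were lower in 14, while Cacna1b was lower in 8 and higher in 9. Cacna1a was lower in library 2 in all 17 subclasses, by a median of -0.26 on the log2 scale, a direction that 1.53% of the 1828 genes with a median of at least 100 CPM shared in all 17. Scn2b (0.41) and Scn4b (1.33), with medians under that level, were higher in library 2 in all 17, a direction that 5.31% of those genes shared. Over broad classes the summed channel level was higher in library 2 in oligodendrocytes (1511 and 2170.3 CPM) and microglia (1951 and 2830 CPM), and library 2 held more striatal nuclei. The part of free RNA or of tissue make-up in these differences was not tested. Each library holds a single treatment group, so an effect of METH cannot be told apart from any other difference between the libraries.

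Partners of the channels were taken from a list of 40 symbols, of which 38 were found and 34 measured. Of these 19 had a clear highest class, against 25% of all genes. The 8 largest ratios of the highest class to the next began with Cacng4, an AMPA receptor auxiliary subunit (362 CPM in oligodendrocyte precursors, 5.08 times the next class). Rem2, a small GTPase that inhibits calcium channels (58.4 CPM in striatal projection neurons, 4.98), and Nfasc (2993 CPM in differentiating oligodendrocytes, 4.32) came after it. The neuronal form of Nfasc anchors sodium channels at nodes and axon initial segments, and which form these nuclei hold was not tested. Next were Stac2, a calcium channel adaptor (117 CPM in inhibitory neurons, 2.78), and Cabp1, a calcium sensor (165 CPM in excitatory neurons, 1.76). Cacng2, also known as stargazin, followed (78.0 CPM in inhibitory neurons, 1.54). The other two, Cacng5 (32.1 CPM in neuroblast or dividing nuclei, ratio 2.74) and Cacng6 (5.09 CPM in differentiating oligodendrocytes, 2.01), had no clear highest class, with lower bounds of 0.832 and 0.0256. Of the 5 listed genes of axonal scaffold and adhesion proteins, Ank3, Sptbn4 and Trim46 were highest in striatal projection neurons. Ank2 was highest in excitatory neurons and Nfasc as above, all 5 clearly. Of the 4 fibroblast growth factor homologous factors, which bind sodium channel alpha subunits, Fgf14 was clearly highest in striatal projection neurons (4766 CPM) and Fgf12 in inhibitory neurons (1856 CPM).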

How the data were processed

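Single-nucleus libraries were made with 10x 3′ chemistry after an iodixanol gradient, per the labels' protocols. The authors deposited raw UMI counts, whole numbers, for each pair of gene and barcode. Cell Ranger 1.3.0, Seurat 3.1.4 and mm10 appear in the submitters' processing notes, whereas per the file headers the matrix came from software version 3.1.0. The filters behind it are not given in the sources used here, and classes were rebuilt from the counts.

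Barcodes needed 500 genes or more (19551 passed). The 1549 doublets called per library by Scrublet (Scanpy 1.11.5), 10.0% in library 1 and 6.19% in library 2, were removed. Counts were scaled to 10000 and log-transformed. The 3000 most variable genes, without the channel genes, gave 50 principal components, 20 neighbours and Leiden clusters at resolution 1, with a second step at 0.5. Clusters were named from 29 marker lists where at least 3 markers were detected, and 11 of 49, with 1412 nuclei, stayed unnamed. UMIs were summed per class and given as CPM with exact Poisson intervals of 95%, and ratios with exact conditional intervals (SciPy 1.17.1). Intervals assume that nuclei of a class are alike and cover counting error only. No p-value was computed, since 1 pooled sample has no replicates.

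The free RNA index of a class was its CPM of Slc17a7, or in excitatory neurons the summed CPM of 3 myelin genes times 0.200, the ratio of Slc17a7 to these genes in 5 other classes. For each gene, the upper Poisson bound was divided by the index in every class that reached 200000 UMIs, and the smallest quotient times the index gave the free RNA level. The class with the smallest quotient has its own upper bound as free RNA level, so it cannot pass for that gene.

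Some channel genes are not reported here, though counts and sums over the family include them. Values per class are given for those with a ratio bound above 1.5 or that lead their family in a class, and the others by highest class and range. Values beyond that rule, such as those of Scn9a, Scn7a and Cacna2d4, the D2 to D1 ratios, the lowest subclasses and the directions of the libraries were picked once values were known. Of the partner list the 8 largest ratios are named, and the scaffold and fibroblast growth factor genes were added once values were known. The members and lists were chosen with earlier results of these data known, and the naming rule was set after the data were seen. The functions were tested on simulated counts. Alternatives changed the gene minimum, doublets, variable genes, resolution, library, free RNA, averaging and UMI minimum.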

Additional observations from a re-analysis of the deposited data

How the results depend on the processing

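Library 1 alone gave fewer channel genes with a clear highest class, 10 against 16, and with a clear highest subclass, 5 against 9, and it holds fewer UMIs. Over the other alternatives these counts ran from 12 to 19 and from 6 to 11. The mean of per-nucleus CPM gave no such count, since it has no Poisson interval. Among 516 recomputed ratios of single genes, 426 stayed within the interval of the reported value, 86 moved outside it and 4 turned round. In 57 of those that stayed or moved, the other class was higher, each where the gene had no clear highest group at that level, broad or subclass. All 4 that turned round were Cacna1c, whose log2 ratio of neuroblast or dividing nuclei to the next class was -0.17 with doublets kept, -0.93 with channel genes allowed among the variable genes, -0.31 at resolution 2 and -0.27 at resolution 0.5. The cause was not tested. For Cacna1a, the log2 ratio of the median of the other subclasses to claustrum was 3.63 and ran from 3.06 to 3.70 over 7 alternatives. The lowest, at resolution 0.5, came with 216 nuclei in the claustrum cluster and 54.9 CPM. For Cacna2d1 in Pvalb and Sst nuclei it was 2.91 and 3.21, and with doublets kept 2.01 and 1.84. The broad class with the largest share of nuclei with a UMI was also that with the largest CPM for 17 of 27 genes, and for 21 after thinning. No paired analysis was possible because the libraries could not be assigned to the groups and no test was made. Depth limits the small groups and the genes under 50 UMIs, and 1 library per group leaves the spread between mice unknown.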
